A study of Dugesia japonica with 18 samples.

Results

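Head fragments of the planarian Dugesia japonica, a free-living flatworm, were compared with trunk fragments at days 5, 7 and 10, the last 3 of 6 sampled days. The comparison took the 3 head and the 3 trunk libraries whose labels carry those days, 6 of the 18 libraries in all, and set the head library of each day against the trunk library of the same day. Each library holds the pooled, polyA-selected RNA of 10 to 20 animals that had been cut into head, trunk and tail. The labels name no genotype, strain, drug or gene knockdown for any group, nor the age of the animals. The meaning of day 0, and the interval between cutting and sampling, are likewise unstated. Each fragment has 1 pool on each day, so that the days stand in for replicates, and all p-values measure the spread between these libraries. A further 6 libraries, head and trunk at days 0, 1 and 3, served to test whether the head-trunk difference itself changed with time, and the 6 tail libraries entered 1 alternative fit.

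Planarians replace lost parts from a pool of dividing stem cells, the neoblasts. Muscle cells along the body secrete position signals: Wnt ligands mark the posterior, secreted Wnt inhibitors and the FGF receptor-like gene nou-darake mark the head, and BMP signals separate back from belly. The head carries the eyes and the brain, whereas the trunk carries the pharynx, a muscular feeding tube, and most of the branched gut.

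The 6 libraries held 17681644 to 21229980 counts each, and a single unannotated unigene (an assembled transcript cluster) took 23.9% to 32.2% of every library. Levels are given as CPM, counts scaled to a common library size with factors from the trimmed mean of M values (TMM), and 3 counts correspond to 0.135 to 0.189 CPM. Unigene lengths were not used, so levels are compared between libraries only, never between genes. Log2 CPM correlated at 0.973 to 0.986 among the head libraries, at 0.979 to 0.985 among the trunk libraries and at 0.911 to 0.933 between fragments. Protein names are those of the deposited annotation, and a name can belong to several near-identical unigenes between which reads may have been split. 

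Of 20385 unigenes tested, 7309 differed between head and trunk at an edgeR quasi-likelihood adjusted p under 0.05, which is 35.9%. Of these, 3357 were higher in the head (16.5% of those tested) and 3952 were lower in the head (19.4%). These shares are the background for every list count below. All differences below are log2 values, head minus trunk, with their standard error. The median over all tested unigenes was 0.022, and the middle of the distribution was broad, from -0.37 at the lower quartile to 0.4 at the upper. Scaling by library totals instead of TMM moved that median to 0.33, and leaving the most abundant unigene out of the totals moved it to 0.43. The share of calls that were higher in the head was 45.9% with TMM, 75.6% with library totals and 82.4% without that unigene, so small differences have a direction only relative to the middle of all genes. The RNA came from whole fragments, so fewer cells of a type and less RNA per cell cannot be told apart here or in any result that follows.

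Genes of the eye were higher in the head or not called. Of 19 tested members of the eye list, 10 were higher in the head, and the list's median was 0.5 against 0.022 for all tested. The count of 10 became 5 of 18 fitted without day 7, 3 of 16 fitted without day 10 and 6 of 19 with no filter. None was lower by edgeR, at an unadjusted p under 0.05 or by DESeq2 (0 in each case). The unigene named rhabdomeric opsin (TRINITY_DN127811_c0_g1), a light-sensing pigment, stood at 77.7, 75.1 and 68.4 CPM in the head on days 5, 7 and 10. In the trunk it was at 1.54, 5.6 and 7.48 CPM. Every head library lay above every trunk library, and the trunk level was larger on each later day. The difference was 4.04 ± 0.63 (SE, edgeR adjusted p = 0.0315), and the call was lost without day 7 (adjusted p = 0.205) and without day 10 (adjusted p = 0.109). On days 0, 1 and 3 the trunk held 0.0558, 0.107 and 0.729 CPM of opsin, beside 150, 127 and 131 CPM in the head. The first 2 of these trunk values were under the level of 3 counts. The change of the head-trunk difference from days 0 to 3 to days 5 to 10, -4.8, was not called (edgeR adjusted p = 0.191).

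Beta-arrestin-2 (TRINITY_DN15526_c0_g1), of the family that switches off active opsin, had the same order. Its head values were 47.5, 36.8 and 38 CPM and its trunk values 0.474, 1.97 and 4.15 CPM on days 5, 7 and 10. Its difference of 4.33 ± 0.77 (edgeR adjusted p = 0.0411) was likewise not called without day 7 (adjusted p = 0.264), without day 10 (adjusted p = 0.0911) or with library totals (adjusted p = 0.0564). Fitting all unigenes with no filter on low counts ended the calls of both opsin (edgeR adjusted p = 0.165) and Beta-arrestin-2 (adjusted p = 0.16). A further arrestin unigene, TRINITY_DN7699_c1_g1, differed by 3.31 ± 0.27 (edgeR adjusted p = 7.44e-05), with 9.17, 11.2 and 11.4 CPM in the head and 0.592, 0.923 and 1.76 CPM in the trunk. Tyrosinase, the melanin-making enzyme of the pigment cup, was measured at 5.13, 3.44 and 2.38 CPM in the head and 0.414, 1.91 and 1.57 CPM in the trunk and did not pass the test (1.48 ± 0.54, edgeR adjusted p = 0.0803). A further opsin unigene, named Rhodopsin, GQ-coupled (TRINITY_DN14095_c1_g1), was not called in the main fit. Its difference was 0.82 without day 5 (edgeR adjusted p = 0.0427), 0.45 without day 7 (adjusted p = 0.429) and 0.26 without day 10 (adjusted p = 0.617).

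The transcription factors of eyes and brain named here differed less in size than rhabdomeric opsin or Beta-arrestin-2, but with smaller errors. The Pax-6 unigene TRINITY_DN8427_c0_g2, of the family that directs eye formation in many animals, was higher in the head by 1.65 ± 0.18 (edgeR adjusted p = 0.000289), with 16.8, 17.3 and 19.4 CPM against 6.99, 5.54 and 4.59 CPM. The six3-1 unigene, a homeobox factor of the anterior brain, read 3.42, 3.13 and 3.78 CPM in the head and 0.77, 0.923 and 1.38 CPM in the trunk (1.75 ± 0.29, edgeR adjusted p = 0.00227). Eyes absent, a transcriptional cofactor, differed by 0.93 ± 0.15 (edgeR adjusted p = 0.00198) and DjotxA, an eye homeobox factor, by 1.2 ± 0.22 (edgeR adjusted p = 0.00369). In none of these 4 genes did a trunk library reach a head library. Lack of overlap, here and elsewhere, was not counted over all tested unigenes and is given as a description of the genes named. The sine oculis-1/2 unigene, a homeobox factor of eye precursors, was at 4.54, 3.94 and 4.63 CPM in the head and 3.2, 3.69 and 2.89 CPM in the trunk and was not called (0.42 ± 0.22, edgeR adjusted p = 0.178). Pax-6B (TRINITY_DN8427_c0_g1) and SIX6 (TRINITY_DN4167_c0_g1) were called higher in the head. Both calls were lost without day 7 (edgeR adjusted p = 0.0654 and 0.0575) and without day 10 (adjusted p = 0.0705 and 0.13). Pax-6B shares an assembly component with the Pax-6 unigene above, so reads may have been exchanged between them.

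**Figure D1:**
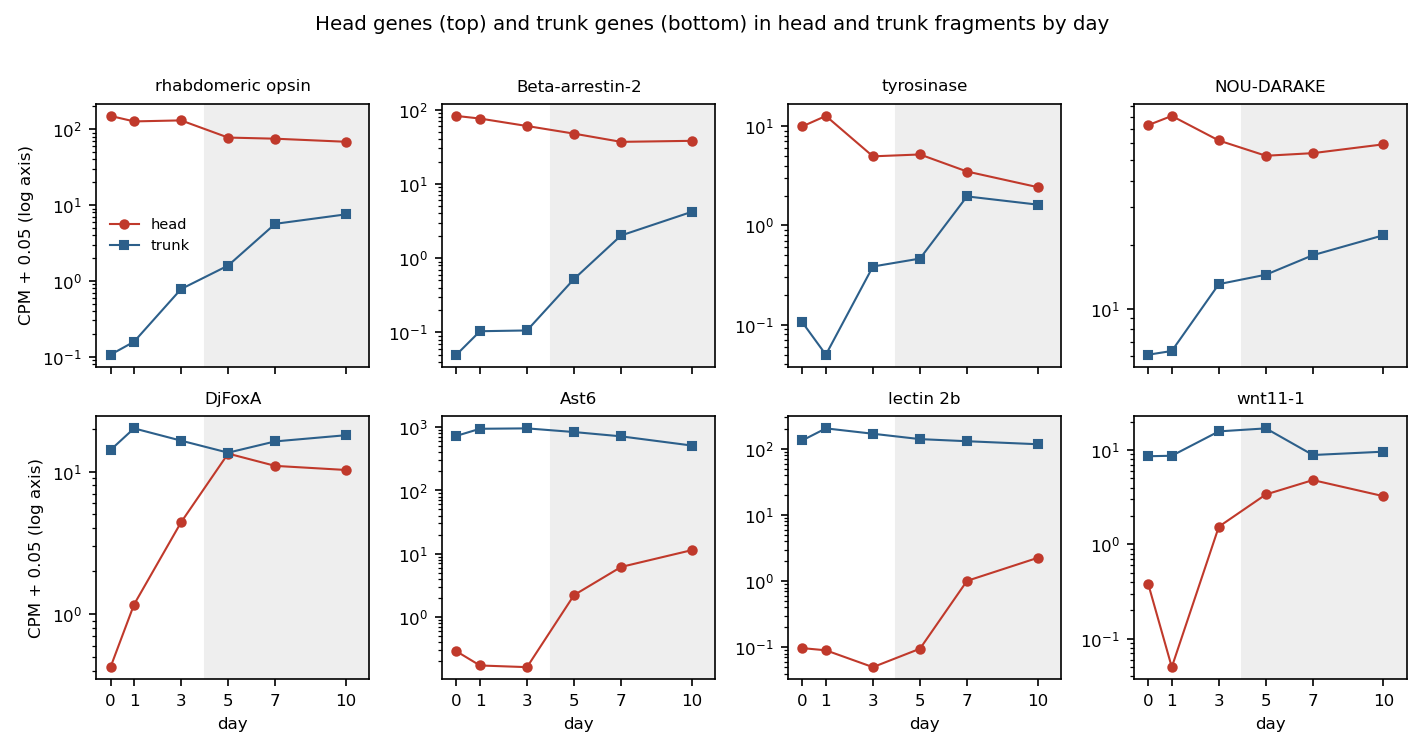
Levels of 8 genes by day, in CPM plus 0.05 on a log axis, with 1 point for each head library and each trunk library; the grey band marks days 5 to 10, and no error bars are drawn since each day has 1 pool per fragment. Opsin and Beta-arrestin-2 in the trunk and DjFoxA, Ast6, lectin 2b and wnt11-1 in the head are lower on days 0 to 3 than on days 7 and 10.

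All 16 tested members of the list of anterior position genes were higher in the head, against 16.5% of all tested unigenes, with a median of 1.32. Both library-total scalings also called 16 of 16 higher, the DESeq2 test called 13, and leaving out a day left 10 to 14 of the 15 then fitted. NOU-DARAKE, the FGF receptor-like protein that keeps brain tissue within the head, was at 52.3, 53.8 and 59.2 CPM in the head and 14.4, 17.8 and 22.1 CPM in the trunk. The fragments did not overlap, and the difference was 1.61 ± 0.11 (edgeR adjusted p = 3.94e-05). On days 0, 1 and 3 the trunk had 6.03, 6.28 and 13 CPM of it, and the change of its head-trunk difference between the windows was -1.54 (edgeR adjusted p = 0.158). Its relative nou-darake like-2 was flat within each fragment, at 57.6, 55.3 and 55.1 CPM against 22, 21.8 and 21.6 CPM, a difference of 1.35 ± 0.091 (edgeR adjusted p = 3.44e-05).

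Receptors and secreted inhibitors of Wnt signalling followed. The Frizzled-5 unigene TRINITY_DN7172_c0_g1, a Wnt receptor, was higher in the head by 2.21 ± 0.14 (edgeR adjusted p = 2.36e-05), with 20.8, 25.3 and 28.6 CPM against 5.09, 5.48 and 5.34 CPM. The unigene named frizzled-5/8-4 differed by 1.55 ± 0.1 (edgeR adjusted p = 2.95e-05). Notum, an enzyme that inactivates Wnt ligands and marks the anterior pole, was at 6.43, 5.46 and 4.5 CPM in the head and at 2.37, 1.48 and 1.63 CPM in the trunk (1.58 ± 0.23, edgeR adjusted p = 0.00118). The trunk had held 5.1 and 4.15 CPM of notum on days 1 and 3 after 0.67 CPM on day 0, above its level on any later day.

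The secreted frizzled-related proteins, which bind Wnts outside the cell, were both called. For sFRP-A the head libraries read 4.09, 6.11 and 5.94 CPM and the trunk libraries 2.78, 2.77 and 1.76 CPM, without overlap (1.12 ± 0.27, edgeR adjusted p = 0.0124; adjusted p = 0.0628 without day 7 and 0.056 without day 10). For sFRP-B they were 16.3, 17.7 and 14.8 CPM against 12.5, 11.9 and 12.6 CPM (0.39 ± 0.13, edgeR adjusted p = 0.0422), a call lost without each day in turn, with adjusted p from 0.053 to 0.204. The unigene named WNT, annotated as Wnt-2b-A, is a Wnt ligand and had 27.3, 22.3 and 23.3 CPM in the head and 12.3, 9.72 and 7.79 CPM in the trunk (1.3 ± 0.13, edgeR adjusted p = 0.000215). The ligand Wnt5a was also higher in the head, at 8.09, 8.39 and 6.29 CPM against 4.14, 4.62 and 4.65 CPM (0.75 ± 0.19, edgeR adjusted p = 0.0148; adjusted p = 0.0809 without day 7). A further WNT unigene, annotated as Wnt-4 and a member of the posterior list, overlapped between the fragments (0.37 ± 0.12, edgeR adjusted p = 0.039), and 7 alternatives ended its call, with adjusted p up to 0.206. FoxD3, a forkhead factor, was higher in the head by 1.85 ± 0.39 (edgeR adjusted p = 0.00716), and ZicB, a zinc finger factor, by 0.84 ± 0.12 (edgeR adjusted p = 0.00124).

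The list of posterior position genes was mixed. Of 21 tested members, 10 were lower in the head, 4 were higher, and the median was -0.45; with library totals the counts were 8 lower and 7 higher. Among the Wnt ligands, wnt11-1 stood at 3.33, 4.75 and 3.19 CPM in the head and 16.9, 8.8 and 9.55 CPM in the trunk (-1.62 ± 0.27, edgeR adjusted p = 0.00306). The head had held 0.329, 0 and 1.49 CPM of it on days 0, 1 and 3. Its later head levels were above all earlier ones while staying under the trunk's. The change of its head-trunk difference between the windows, 2.82, was not called (edgeR adjusted p = 0.203). The wnt11-5 unigene, which the other annotation names Wnt-4, was at 21.7, 24.2 and 17.7 CPM in the head and 58.7, 41.1 and 41.1 CPM in the trunk (-1.15 ± 0.13, edgeR adjusted p = 0.000459). Its earlier head values were 5.46, 4.55 and 10.6 CPM, and the change of the difference, 1.64, missed the threshold (edgeR adjusted p = 0.0579). Both wnt11-2 (-1.73 ± 0.4, edgeR adjusted p = 0.0113) and wntP-3 (-1.24 ± 0.25, edgeR adjusted p = 0.00595) were also lower in the head. The unigene named wnt-1, annotated elsewhere as Wnt-11b-2, went the other way, with 2.07, 2.48 and 1.84 CPM in the head and 1.18, 0.492 and 0.943 CPM in the trunk (1.27 ± 0.38, edgeR adjusted p = 0.0312). The wnt-1 call did not hold by the DESeq2 test (adjusted p = 0.0739), nor the wnt11-1 call in the fit of 18 libraries (edgeR adjusted p = 0.0679).

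Hox genes, homeobox factors deployed along the body axis, also split. Abd-Ba differed by -1.65 ± 0.21 (edgeR adjusted p = 0.000636), with 2.52, 5.05 and 6.38 CPM in the head and 12.3, 13.1 and 16.4 CPM in the trunk. Within the head its days 0, 1 and 3 had 0.611, 1.2 and 1.6 CPM. The change of its difference between the windows, 1.55, was not called (edgeR adjusted p = 0.0915). Abd-Bb, by contrast, had overlapping values of 11.1, 10.1 and 10.7 CPM in the head and 10.8, 10.2 and 10.5 CPM in the trunk (0.015 ± 0.13, edgeR adjusted p = 0.944). The php-3 unigene differed by -1.22 ± 0.18 (edgeR adjusted p = 0.00153) and PLOX5 by -1.47 ± 0.25 (edgeR adjusted p = 0.00266). PLOX4 differed by -0.81 ± 0.19 (edgeR adjusted p = 0.0114), a call that neither scaling by library totals kept. Teashirt, a zinc finger factor, read 28, 38.9 and 34.1 CPM in the head and 65.8, 62.1 and 74 CPM in the trunk (-1.02 ± 0.12, edgeR adjusted p = 0.000455). The Wnt receptor Frizzled-4, among the list's 4 members higher in the head, was at 16.1, 18.2 and 17.6 CPM against 4.68, 4.8 and 5.22 CPM (1.81 ± 0.14, edgeR adjusted p = 5.44e-05). Several Hox unigenes share an assembly component, so reads may have been exchanged between them.

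**Figure D2:**
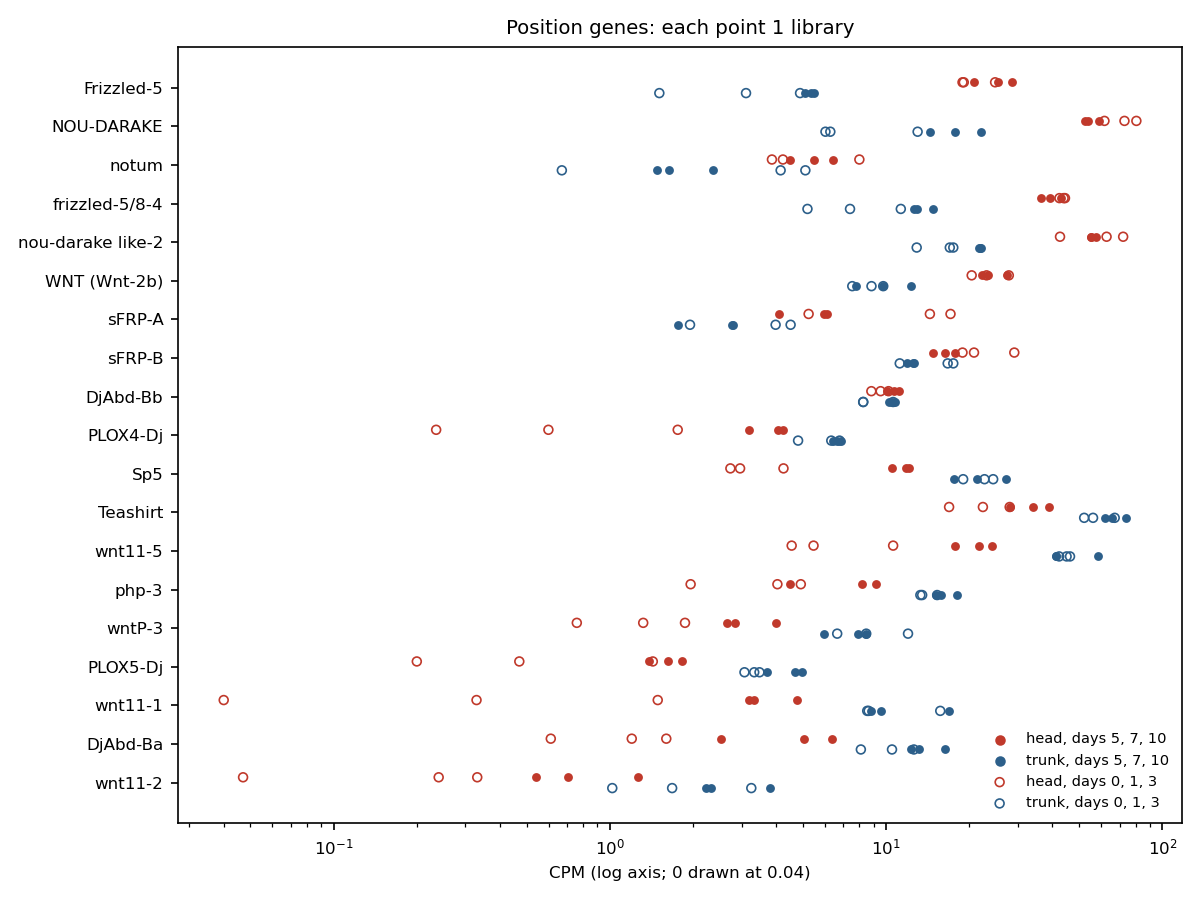
Levels of 19 position genes in CPM on a log axis, with 1 point per head or trunk library, filled for days 5 to 10 and open for days 0 to 3; values of 0 are drawn at 0.04. NOU-DARAKE and the frizzled genes separate the fragments in both windows, while wnt11-1, Abd-Ba and PLOX4 in the head move towards the trunk's values. Of 21 tested members of the posterior list, 0 were called for a change of the head-trunk difference between windows.

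Of 20 tested members of the BMP list, 9 were higher and 3 lower in the head (median 0.32), and 5 were higher by the DESeq2 test, without day 7 or without day 10. The secreted BMP antagonist relative noggin-like 5 had 4.09, 1.26 and 1.53 CPM in the head and 41.2, 18 and 8.23 CPM in the trunk, where it was smaller on each later day (-3.22 ± 0.25, edgeR adjusted p = 9.54e-05). Noggin 1, a BMP antagonist, had the opposite sign, with 4.99, 5.25 and 5.62 CPM in the head and 2.84, 1.66 and 1.7 CPM in the trunk (1.36 ± 0.26, edgeR adjusted p = 0.00462). The inhibitory signal transducer SMAD6/7-2 was at 21.2, 22.6 and 27.2 CPM in the head and 5.27, 6.03 and 6.16 CPM in the trunk (2.01 ± 0.13, edgeR adjusted p = 2.83e-05). No head library overlapped a trunk library for any of these 3 genes. The ligand bmp (TRINITY_DN32104_c0_g1) was not called (0.018 ± 0.36, edgeR adjusted p = 0.976). The ligand admp-1a passed in the full fit (0.57 ± 0.19, edgeR adjusted p = 0.0472) but not when any day was left out.

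Genes of the nervous system were called higher in the head far more often than lower. Of 19 tested neuropeptide and peptide-processing genes, 14 were higher and 3 lower in the head, with a median of 2.31. Neuropeptide Y prohormone-6, a precursor of secreted signalling peptides, was at 29.2, 31 and 26.5 CPM in the head and 1.6, 1.42 and 4.02 CPM in the trunk (3.69 ± 0.38, edgeR adjusted p = 0.00254; adjusted p = 0.135 without day 5). Neuropeptide Y prohormone-10 differed by 3.5 ± 0.43 (edgeR adjusted p = 0.00105), with 9.53, 7.98 and 7.78 CPM against 0.237, 1.42 and 0.629 CPM. Prohormone convertase 2, a protease that cuts prohormones into peptides, had 393, 333 and 336 CPM in the head and 68, 81.4 and 95.9 CPM in the trunk (2.12 ± 0.14, edgeR adjusted p = 5.14e-05). For these 3 genes the fragments were far apart on each day.

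A pair of members differed in the other direction. Neuropeptide precursor-1 was nearly absent from the head on day 5, with 0.0899, 0.657 and 0.944 CPM on days 5, 7 and 10, and had 6.81, 5.78 and 5.78 CPM in the trunk (-3.48 ± 0.49, edgeR adjusted p = 0.00189). The processing protease named Neuroendocrine convertase 1 was at 7.64, 8.24 and 5.26 CPM in the head and 60, 37.7 and 37.7 CPM in the trunk (-2.68 ± 0.16, edgeR adjusted p = 2.83e-05), the reverse of Prohormone convertase 2.

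Among 12 tested transmitter synthesis genes, 6 were higher and 3 lower in the head (median 0.63). Choline acetyltransferase, which makes acetylcholine, was at 428, 495 and 476 CPM in the head and 105, 136 and 157 CPM in the trunk (1.82 ± 0.1, edgeR adjusted p = 1.89e-05). The vesicular transporter unigene slc18a-6 went with it, at 46.8, 41.2 and 34.8 CPM against 6.69, 13.8 and 12.9 CPM (1.91 ± 0.32, edgeR adjusted p = 0.0141; adjusted p = 0.0671 without day 7). Tryptophan hydroxylase, the first enzyme of serotonin synthesis, differed by 1.59 ± 0.14 (edgeR adjusted p = 0.000105), and tyramine beta-hydroxylase, which makes octopamine, by 2.34 ± 0.21 (edgeR adjusted p = 0.000131).

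The GABA-making enzyme glutamic acid decarboxylase had the opposite order, at 3.82, 4.29 and 2.83 CPM in the head and 19.4, 9.97 and 10.1 CPM in the trunk (-1.81 ± 0.23, edgeR adjusted p = 0.000607). The unigene slc32a-1, of the family that loads GABA into vesicles, was low throughout, with 0.63, 0.253 and 0.54 CPM in the head and 2.9, 1.91 and 1.19 CPM in the trunk, and differed by -2.04 ± 0.42 (edgeR adjusted p = 0.00649). Aromatic amino acid decarboxylase, an enzyme of dopamine and serotonin synthesis, was lower in the head as well (-1.19 ± 0.18, edgeR adjusted p = 0.00146).

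Release machinery, receptors and channels were called higher in the head more often than lower. Of 50 tested synapse genes 25 were higher and 7 lower (median 0.3), of 108 ligand-gated receptors 68 and 8 (median 0.88), of 61 voltage-gated channels 42 and 2 (median 1.01), and of 91 neuronal G protein-coupled receptors 57 and 3 (median 1). Leaving out a day also left fewer members passing the filter. Of the G protein-coupled receptors then fitted, 35 of 67 were higher without day 5, 29 of 66 without day 7 and 28 of 61 without day 10. Without day 7, 45 of 96 fitted ligand-gated receptors were higher. The calcium sensor of vesicle release Synaptotagmin-11 had 136, 134 and 136 CPM in the head and 21.8, 26 and 30 CPM in the trunk (2.38 ± 0.11, edgeR adjusted p = 7.67e-06). Its relative Synaptotagmin-17 had the other sign under every setting run (-2.35 ± 0.33, edgeR adjusted p = 0.00113). The glutamate receptor DjGluR1 was at 84.1, 100 and 95.1 CPM in the head and 3.73, 11.6 and 15.8 CPM in the trunk (3.33 ± 0.48, edgeR adjusted p = 0.0216; adjusted p = 0.17 without day 7 and 0.143 with no filter). The acetylcholine receptor unigene TRINITY_DN14258_c0_g1 differed by 2.26 ± 0.17 (edgeR adjusted p = 5.2e-05).

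Of 42 tested axon guidance genes, 21 were higher and 7 lower in the head (median 0.35). The guidance receptor roundabout had 81.9, 78 and 81.4 CPM in the head and 29.4, 36.1 and 34.9 CPM in the trunk (1.26 ± 0.1, edgeR adjusted p = 7.66e-05). The unigene named slit-2, of the family of its repulsive ligands, differed by the same 1.26 ± 0.091 (edgeR adjusted p = 4.55e-05), with 55.3, 59.6 and 62.1 CPM against 23.4, 25.3 and 24.8 CPM. Outside the Hox group, 22 of 61 tested homeobox factors were higher in the head and 5 lower, with a median of 0.43 (14 and 3 without day 7, 13 and 3 without day 10). The homeobox factors cut-like 1 (1.57 ± 0.092, edgeR adjusted p = 2e-05) and orthopedia, a factor of brain development (1.44 ± 0.14), were called higher in the head.

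**Figure D3:**
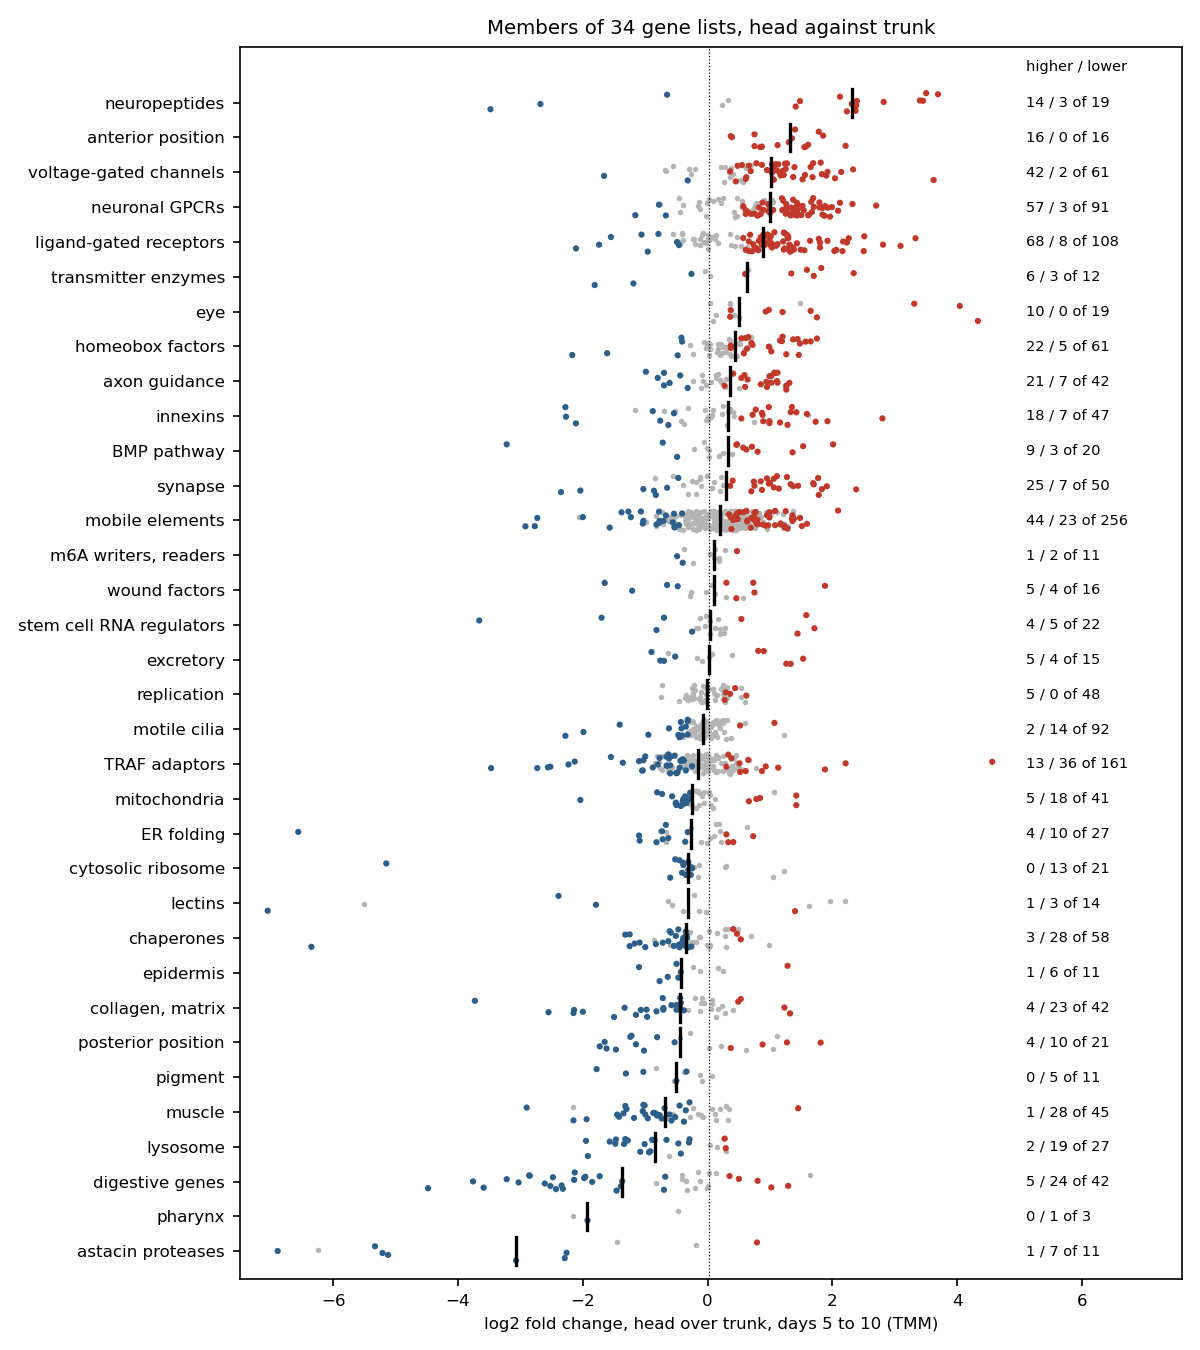
Log2 head-minus-trunk differences of the tested members of 34 gene lists, with 1 dot per unigene, red where called higher in the head, blue where called lower and grey where not called; the black bar is the median, and the numbers are the counts higher and lower out of those tested. All 16 anterior members are red, the nerve lists lie mostly to the right, and intestine, lysosome, muscle and astacin members lie mostly to the left.

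Genes of the pharynx and secreted proteins of the trunk came next. DjFoxA, a forkhead factor required for the pharynx in planarians and annotated as Silk gland factor 1, had 13.3, 10.9 and 10.2 CPM in the head and 13.5, 16.2 and 17.9 CPM in the trunk. The head library lay under the trunk library on each day, by little on day 5, and the gene was not called (-0.48 ± 0.17, edgeR adjusted p = 0.0583), whereas the fit without day 5 called it (-0.7, adjusted p = 0.00123). On days 0, 1 and 3 the head had held 0.376, 1.12 and 4.36 CPM, and the change between windows was 2.94 (edgeR adjusted p = 0.207). Of 3 tested pharynx genes 1 was called, with a median of -1.94. The call was myosin heavy chain A (TRINITY_DN4102_c0_g6), which had 31.9, 36.2 and 26.5 CPM in the head and 134, 89.5 and 143 CPM in the trunk (-1.94 ± 0.23, edgeR adjusted p = 0.00315; adjusted p = 0.246 without day 5).

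Of 11 tested astacin proteases, a family of secreted zinc proteases, 7 were lower and 1 higher in the head, with a median of -3.07. Without day 5, 7 or 10 the count lower was 4 of 11, 3 of 11 and 6 of 9 fitted. Ast6 was at 2.16, 6.11 and 11.3 CPM in the head and 840, 718 and 514 CPM in the trunk, so that the gap narrowed on each later day (-6.89 ± 0.97, edgeR adjusted p = 0.0349; adjusted p = 0.124 without day 5, 0.234 without day 7 and 0.217 with no filter). On days 0, 1 and 3 the head had 0.235, 0.12 and 0.11 CPM of it. The change of its difference between the windows, 5.52, was not called (edgeR adjusted p = 0.168). Ast2 had 1.75, 3.33 and 4.68 CPM in the head and 22.2, 34.2 and 22.8 CPM in the trunk (-3.07 ± 0.28, edgeR adjusted p = 0.000573). The member higher in the head was named Blastula protease 10, with 260, 274 and 258 CPM against 138, 173 and 146 CPM (0.79 ± 0.089, edgeR adjusted p = 0.000342).

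Other trunk genes had the same low head level. The carbohydrate-binding lectin 2b, annotated elsewhere as a mannose receptor, was at 0.045, 0.96 and 2.2 CPM in the head and 141, 131 and 118 CPM in the trunk (-7.05 ± 1.04, edgeR adjusted p = 0.0375; adjusted p = 0.0519 without day 5, 0.255 without day 7 and 0.129 with no filter). It was 1 of 3 lectins lower in the head among 14 tested (21.4%, beside 19.4% of all tested), with 1 higher (median -0.31). The matrix protease mmp1 was at 0.495, 1.77 and 3.6 CPM in the head and 68.9, 65.7 and 52.7 CPM in the trunk (-5.12 ± 0.8, edgeR adjusted p = 0.0355; adjusted p = 0.0864 without day 5, 0.243 without day 7 and 0.15 with no filter). The zinc transporter ZIP12 did not narrow, at 0.45, 0.152 and 0.315 CPM in the head and 14.5, 17.3 and 25.8 CPM in the trunk (-5.92 ± 0.29, edgeR adjusted p = 1.07e-05). Serine protease 27 (-5.54 ± 0.57, edgeR adjusted p = 0.00153) and the protease inhibitor-like conkunitzin (-4.49 ± 0.41, edgeR adjusted p = 0.000475) were also far lower in the head.

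A count over all unigenes, with thresholds chosen after the data were seen, put these genes in context. On days 0 to 3, 72 unigenes had a mean of at least 10 CPM in the trunk and under 0.5 CPM in every head library. Of these, 8 reached 1 CPM in the head on day 5, 32 on day 7 and 53 on day 10, with head medians of 0.18, 0.758 and 2.2 CPM, and 59 still had a mean of at least 10 CPM in the trunk. The same thresholds applied to days 5 to 10 chose 8 unigenes, none of which reached 1 CPM in the head on days 0, 1 or 3. In the other direction 11 unigenes, Beta-arrestin-2 among them, had at least 10 CPM in the head and under 0.5 CPM in every trunk library on days 0 to 3. In the trunk, 1, 8 and 8 of the 11 reached 1 CPM on days 5, 7 and 10. Applied to days 5 to 10, the same choice gave 4 unigenes, of which 3 had reached 1 CPM in the trunk on day 1 and none on days 0 or 3. Choosing unigenes for low values on some days favours larger values on others, so these counts are descriptions.

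Gut genes were lower in the head, and some of the gap opened between the windows. Of 42 tested intestine genes, 24 were lower and 5 higher in the head against 19.4% and 16.5% of all tested, with a median of -1.38. Their summed level was 3590 to 4640 CPM in the head libraries and 12800 to 19700 CPM in the trunk libraries. Cathepsin L2 (TRINITY_DN60241_c0_g1), a digestive cysteine protease, was at 238, 124 and 111 CPM in the head and 3280, 1630 and 1500 CPM in the trunk (-3.76 ± 0.089, edgeR adjusted p = 7.19e-07). Of the later days, day 5 was the highest in each fragment, and the fragments stayed far apart. On days 0, 1 and 3 the head had held 951, 590 and 293 CPM and the trunk 2130, 1670 and 1240 CPM, a change of the difference of -2.17 (edgeR adjusted p = 0.00187). The name cathepsin L2 belongs to 12 other unigenes, so reads may be divided among copies.

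The detoxifying enzyme glutathione S-transferase (GST, TRINITY_DN194252_c8_g2) was at 2390, 1260 and 965 CPM in the head and 21000, 12400 and 11700 CPM in the trunk (-3.35 ± 0.11, edgeR adjusted p = 3.18e-06). The trypsin-like serine protease TRINITY_DN9140_c0_g1 had 39.5, 29.9 and 13.7 CPM in the head and 445, 237 and 270 CPM in the trunk (-3.59 ± 0.3, edgeR adjusted p = 0.00251; adjusted p = 0.179 without day 5). Ferritin lower subunit, an iron storage protein, differed by -1.85 ± 0.18 (edgeR adjusted p = 0.000549). Aminopeptidase N, a peptide-digesting enzyme, was higher in the head instead, at 67.8, 58.3 and 62.5 CPM in the head and 25.3, 26.2 and 25 CPM in the trunk (1.29 ± 0.1). DTH-1, a homeobox factor of the planarian gut, had 19.7, 14.3 and 11.5 CPM in the head and 105, 58.1 and 48.1 CPM in the trunk (-2.17 ± 0.11, edgeR adjusted p = 1.13e-05). It too was smaller on each later day in both fragments.

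Lysosomal hydrolases were lower in the head in 19 of 27 tested and higher in 2 (median -0.85). Lysosomal aspartic protease had 418, 307 and 294 CPM in the head and 1850, 1130 and 958 CPM in the trunk (-1.92 ± 0.11, edgeR adjusted p = 1.74e-05). The gap junction gene innexin7 was at 40.8, 31.8 and 30.8 CPM in the head and 254, 148 and 120 CPM in the trunk (-2.28 ± 0.14, edgeR adjusted p = 2.83e-05), although the innexin list as a whole had 18 higher and 7 lower of 47 (median 0.33). TRAF3, a signalling adaptor, had 25.9, 22 and 21.9 CPM in the head and 203, 123 and 100 CPM in the trunk (-2.56 ± 0.15, edgeR adjusted p = 4e-05). Of 161 tested unigenes with TRAF names 36 were lower (22.4%) and 13 higher (8.07%) in the head, beside 19.4% and 16.5% of all tested. Their median was -0.15. With library totals 16 were lower and 32 higher (median 0.16), and without day 7 the counts were 23 and 6.

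Day 5 was the highest of the 3 trunk libraries in 21 of the 24 intestine genes lower in the head (87.5%). The same held in 17 of the 19 lysosome genes (89.5%), beside 1914 of all 3952 unigenes lower in the head (48.4%). Day 10 was the lowest of the 3 head libraries in 17 of the 24 intestine genes (70.8%, beside 34.6% of all). Without day 5 the intestine list still had 22 members lower in the head, and 23 without day 7 or without day 10.

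**Figure D4:**
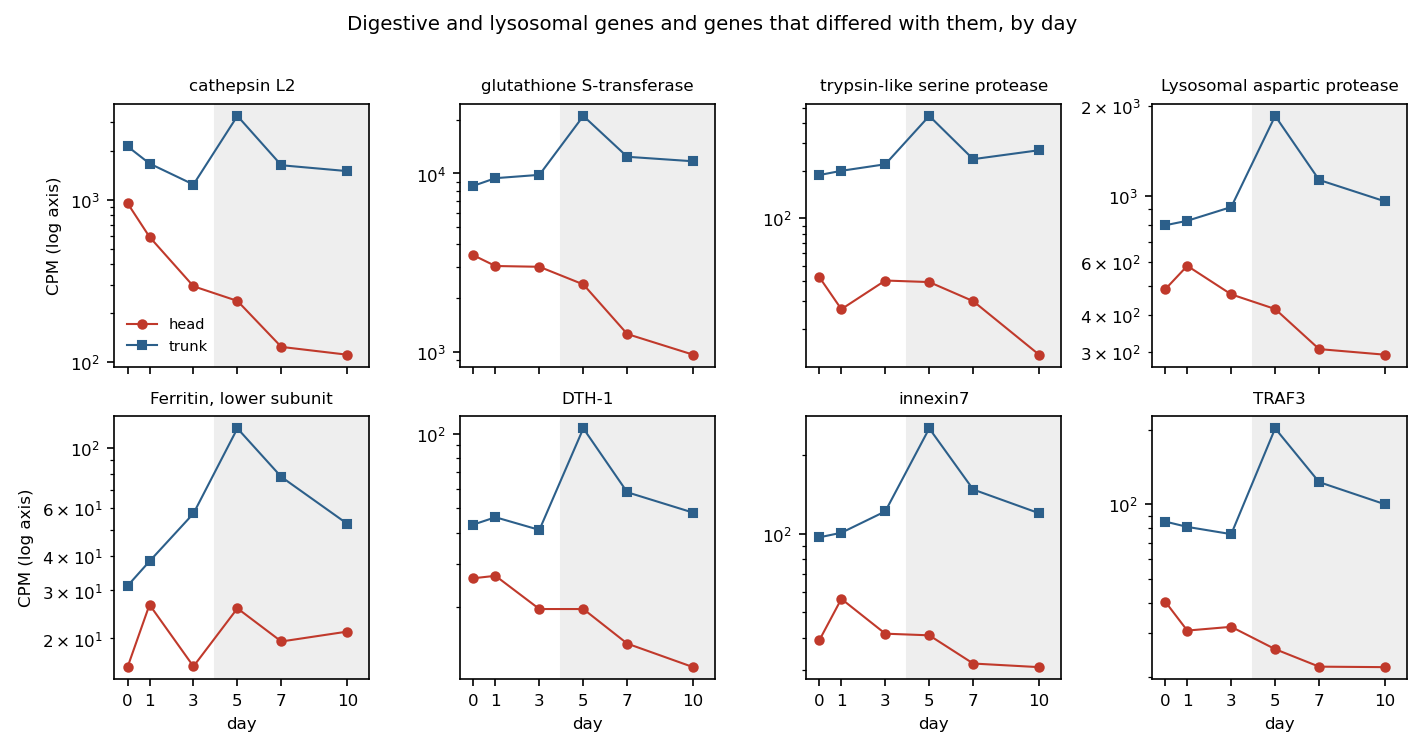
Levels of 8 genes by day in CPM on a log axis: digestive and lysosomal genes, with GST, DTH-1, innexin7 and TRAF3 beside them. Each library has 1 point, and no error bars are drawn since each day has 1 pool per fragment. In all 8 the trunk lies above the head on days 5, 7 and 10, and the trunk's day 5 is higher than its days 7 and 10.

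Contractile genes were lower in the head. Of 45 tested muscle genes 28 were lower and 1 higher (median -0.69), and their summed level was 11900 to 13600 CPM in the head and 20500 to 25800 CPM in the trunk. The motor protein unigene myosin heavy chain (TRINITY_DN4102_c0_g1) was at 545, 598 and 621 CPM in the head and 3190, 2230 and 2440 CPM in the trunk (-2.15 ± 0.14, edgeR adjusted p = 4.37e-05). The thick filament protein Paramyosin (TRINITY_DN27264_c0_g1) was at 800, 1050 and 1020 CPM against 2650, 2070 and 2590 CPM (-1.35 ± 0.14, edgeR adjusted p = 0.000368), and Troponin I, of the thin filament switch, at 642, 778 and 740 CPM against 1340, 1130 and 1310 CPM (-0.81 ± 0.11, edgeR adjusted p = 0.000857). No head library overlapped a trunk library in these 3. The anterior list, which holds receptors and transcription factors besides secreted proteins, differed in the opposite direction from the contractile list. The cause was not tested. Titin homolog was the member higher in the head (1.45 ± 0.38, edgeR adjusted p = 0.0251; adjusted p = 0.102 without day 7).

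Of 42 tested collagen and matrix genes, 23 were lower and 4 higher in the head (median -0.44), counts that became 13 lower and 8 higher with library totals and 11 lower and 13 higher without the most abundant unigene in them. The matrix protease mmp2 was at 16.8, 14.8 and 17.6 CPM in the head and 106, 97.7 and 83.6 CPM in the trunk (-2.55 ± 0.12, edgeR adjusted p = 8.82e-06). Collagen XII differed by -3.73 ± 0.47 (edgeR adjusted p = 0.0118; adjusted p = 0.145 without day 7).

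Stem cell genes were called in both directions and few replication genes were called. Of 22 tested neoblast genes 4 were higher (18.2%) and 5 lower (22.7%) in the head, beside 16.5% and 19.4% of all tested. Their median was 0.03. Without day 7 or day 10, 2 were lower, and library totals gave 9 higher and 3 lower. Of 48 replication and mitosis genes 5 were higher (10.4%, beside 16.5% of all tested), with a median of -0.0068. None of the 48 was lower by edgeR or DESeq2, and 1 was at an unadjusted p under 0.05. Without day 5, however, 7 of 47 were lower and 5 higher, without day 10 the counts were 1 and 1, and library totals gave 12 higher. PiwiA, a neoblast protein that silences transposons with small RNAs, was at 222, 142 and 156 CPM in the head and 191, 196 and 144 CPM in the trunk, with overlapping ranges (-0.05 ± 0.14, edgeR adjusted p = 0.81). PiwiC (-0.15 ± 0.1, edgeR adjusted p = 0.26) and DjPiwiB (-0.019 ± 0.12, edgeR adjusted p = 0.922) were not called either. Proliferating cell nuclear antigen, the sliding clamp of DNA polymerase, had 49, 33.7 and 37.7 CPM in the head and 35.1, 49.9 and 35.1 CPM in the trunk. The head was above the trunk on days 5 and 10 and below it on day 7, and the sign of the replication list followed, with day medians of 0.22, -0.15 and 0.11. On days 0, 1 and 3 those medians had been -0.7, -0.34 and -0.49. A nanos-related unigene, of a germ cell family, had 1.21, 0.253 and 0.045 CPM in the head and 4.62, 9.6 and 4.84 CPM in the trunk (-3.66 ± 0.76, edgeR adjusted p = 0.0227; adjusted p = 0.0965 without day 7 and 0.0727 without day 10).

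Housekeeping lists had small medians whose sign depended on the scaling. Cytosolic ribosome genes were lower in the head in 13 of 21 tested (median -0.31), 0 being higher by edgeR, at an unadjusted p under 0.05 or by DESeq2, but with library totals 4 were higher and 1 lower (median 0.0053), and without day 7 or day 10 the count lower was 6 and 4. Mitochondrial genes were lower in 18 of 41 and higher in 5 (median -0.25), and with library totals 8 were higher and 3 lower (median 0.059), and without day 7 or day 10 the count lower was 10 and 9. Heat shock genes and chaperones were lower in 28 of 58 and higher in 3 (median -0.35), and leaving the most abundant unigene out of the totals gave 10 higher and 7 lower (median 0.058), and without day 7 or day 10 the count lower was 15 and 18. Cilia genes were lower in 14 of 92 (15.2%, beside 19.4% of all tested) and higher in 2 (median -0.081). With library totals 21 were higher and 4 lower (median 0.23), and without day 10 the count lower was 5. Relative to the median of all tested unigenes, these 4 list medians stayed below 0 under both library-total scalings. Such scalings shift all unigenes by a similar amount, so that result was fixed in advance and is not a separate check. Of 27 tested genes of ER folding, 10 were lower and 4 higher (median -0.26), against 6 and 11 with library totals.

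Excretory (protonephridial) genes had 5 higher (33.3%) and 4 lower (26.7%) of 15, beside 16.5% and 19.4% of all tested. Their median was 0.022. The slit diaphragm protein NPHS1-6 was higher in the head by 1.26 ± 0.19. An aquaporin, a water channel (TRINITY_DN14405_c0_g1), was higher by 1.53 ± 0.23 (edgeR adjusted p = 0.00698, and 0.277 without day 5). Pigment synthesis genes were lower in 5 of 11 (45.5%, beside 19.4% of all tested), with a median of -0.5. Under library totals 2 were lower. Of the 11, 0 were higher by edgeR, at an unadjusted p under 0.05 or by DESeq2. Among the 5 lower was Kynurenine 3-monooxygenase (TRINITY_DN875_c0_g1), an enzyme of ommochrome synthesis, at -1.78 ± 0.1 (edgeR adjusted p = 2e-05). Among 11 epidermal genes 6 were lower in the head (54.5%) and 1 was higher (9.09%), beside 19.4% and 16.5% of all tested. Their median was -0.43. Without day 7 or day 10, 3 were lower, and with library totals 2 were lower and 3 higher. Among 16 wound response genes 5 were higher (31.2%) and 4 lower (25%), beside 16.5% and 19.4% of all tested. Their median was 0.094, and without day 10 the counts were 2 and 3. One member, early growth response-2, is an immediate early factor. It was at 3.46, 1.87 and 2.38 CPM in the head and 0.947, 0.554 and 0.566 CPM in the trunk (1.88 ± 0.32, edgeR adjusted p = 0.00257). Among 256 unigenes named for mobile elements, 44 were higher (17.2%) and 23 lower (8.98%), beside 16.5% and 19.4% of all tested. Their median was 0.19, and the counts were 24 and 15 without day 7 and 29 and 13 without day 10.

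The series title concerns m6A, a methyl mark on messenger RNA. Of 11 tested writer and reader genes 1 was higher (9.09%) and 2 were lower (18.2%) in the head, beside 16.5% and 19.4% of all tested. Their median was 0.1, and library totals gave 5 higher and 0 lower. The catalytic writer METTL3 (TRINITY_DN30538_c0_g1) had overlapping values of 13.7, 11.4 and 11.8 CPM in the head and 10.1, 12.1 and 10.2 CPM in the trunk (0.18 ± 0.15, edgeR adjusted p = 0.39). Its non-catalytic partner of the METTL14 type (TRINITY_DN1857_c0_g1) was higher in the head, at 42, 46.2 and 38.8 CPM against 32.1, 32 and 27.3 CPM (0.47 ± 0.092, edgeR adjusted p = 0.00544). The reader unigenes TRINITY_DN6087_c0_g1 (-0.49, edgeR adjusted p = 0.0108) and TRINITY_DN77690_c0_g1 (-0.4 ± 0.13, edgeR adjusted p = 0.0382) were lower in the head with TMM, but with library totals neither was called (edgeR adjusted p = 0.319 and 0.589), and the latter was at 0.0081 when the most abundant unigene was left out of the totals.

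Fewer unigenes changed their head-trunk difference between days 0 to 3 and days 5 to 10. Of 23089 tested in the 12 libraries, 165 did so at an edgeR adjusted p under 0.05 (0.715%), 56 towards the head (0.243%) and 109 towards the trunk (0.472%). Calls of days 5 to 10 came from the fit of 6 libraries, and calls of days 0 to 3 from the fit of 12, which includes the later libraries. These calls are therefore not independent. Of the unigenes tested in both fits, 4417 were called in both windows, 60.4% of the later and 73.8% of the 5987 earlier calls. Among them, 4400 had the same sign. Towards the head the change was largest for Ast2 (5.14, edgeR adjusted p = 0.0071), followed by Pax-beta1, a paired-box factor (3.39, adjusted p = 0.00379), lectin 1 (TRINITY_DN16234_c0_g1, 2.73, adjusted p = 0.0236), an endothelin-converting enzyme, a membrane metalloprotease (2.23, adjusted p = 0.0221), Sp5, a Wnt-responsive zinc finger factor in other animals (1.83, adjusted p = 0.00274), CDK1-B, a cell cycle kinase (1.56, adjusted p = 0.0448), SoxP-1, a neoblast factor (1.52, adjusted p = 0.00274) and mmp2 (1.5, adjusted p = 0.00644). The changes of Sp5, Pax-beta1 and mmp2 were called under every alternative run. The SoxP-1 change was not called with no replicate block (edgeR adjusted p = 0.212), nor the Ast2 change without day 0 (adjusted p = 0.0569). Leaving out a day ended the call for lectin 1 (days 1, 7 and 10, edgeR adjusted p from 0.0745 to 0.0978), the endothelin-converting enzyme (days 0, 1, 7 and 10, adjusted p from 0.0723 to 0.0959) and CDK1-B (each of the 6 days, adjusted p from 0.071 to 0.165).

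Sp5 was at 11.8, 12.1 and 10.5 CPM in the head and 27.2, 21.3 and 17.6 CPM in the trunk on days 5, 7 and 10, still lower in the head (-0.93 ± 0.13, edgeR adjusted p = 0.00114). SoxP-1 stood at 34.9, 23.2 and 20 CPM in the head and 20.2, 15.8 and 10.2 CPM in the trunk (0.76 ± 0.12; edgeR adjusted p = 0.0897 with no replicate block), with the head above the trunk on each day and day 5 the highest in both fragments. Pax-beta1 was at 8.05, 6.92 and 5.4 CPM in the head and 3.97, 5.48 and 5.09 CPM in the trunk, close together on day 10.

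Among the changes towards the trunk were 5 of 43 tested members of the intestine list, cathepsin L2 among them. Activin 1, a TGF-beta family ligand, was at 7.69, 4.09 and 2.74 CPM in the head and 90.2, 56.1 and 52.7 CPM in the trunk, a difference of -3.85 ± 0.15 after a change of -2.29 (edgeR adjusted p = 0.0107). The change was -1.8 for GST (edgeR adjusted p = 0.00164), -1.32 for DTH-1 (adjusted p = 0.0048), -1.31 for TRAF3 (adjusted p = 0.014) and -1.18 for Lysosomal aspartic protease (adjusted p = 0.0107). SNO (-1.87, edgeR adjusted p = 0.00644), the transporter unigene wht-1 (-1.8, adjusted p = 0.00371), 2-aminomuconic semialdehyde dehydrogenase, an enzyme of tryptophan breakdown (-1.94, adjusted p = 0.0363), and ammonium transporter 3 (-3.65, adjusted p = 0.0485) changed the same way. Of these, activin 1 (days 1 and 7, edgeR adjusted p to 0.0754), Lysosomal aspartic protease (days 0 and 7, adjusted p to 0.0598), TRAF3 (days 0, 1 and 7, adjusted p to 0.0779), 2-aminomuconic semialdehyde dehydrogenase (days 1, 5, 7 and 10, adjusted p to 0.184) and ammonium transporter 3 (days 0, 1, 3, 7 and 10, adjusted p to 0.197) lost the call when a named day was left out. With no replicate block none of the genes named as changing towards the trunk kept it, at edgeR adjusted p of 0.154 for GST, 0.249 for cathepsin L2 and 0.187 for DTH-1. An HSP90 copy, TRINITY_DN156700_c0_g1, had the lowest value (-6.69, edgeR adjusted p = 0.0411), but on days 5 to 10 it was at 0 CPM in every library except the trunk of day 7, at 7.82 CPM, and the DESeq2 test did not call it (adjusted p = 0.994).

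**Figure D5:**
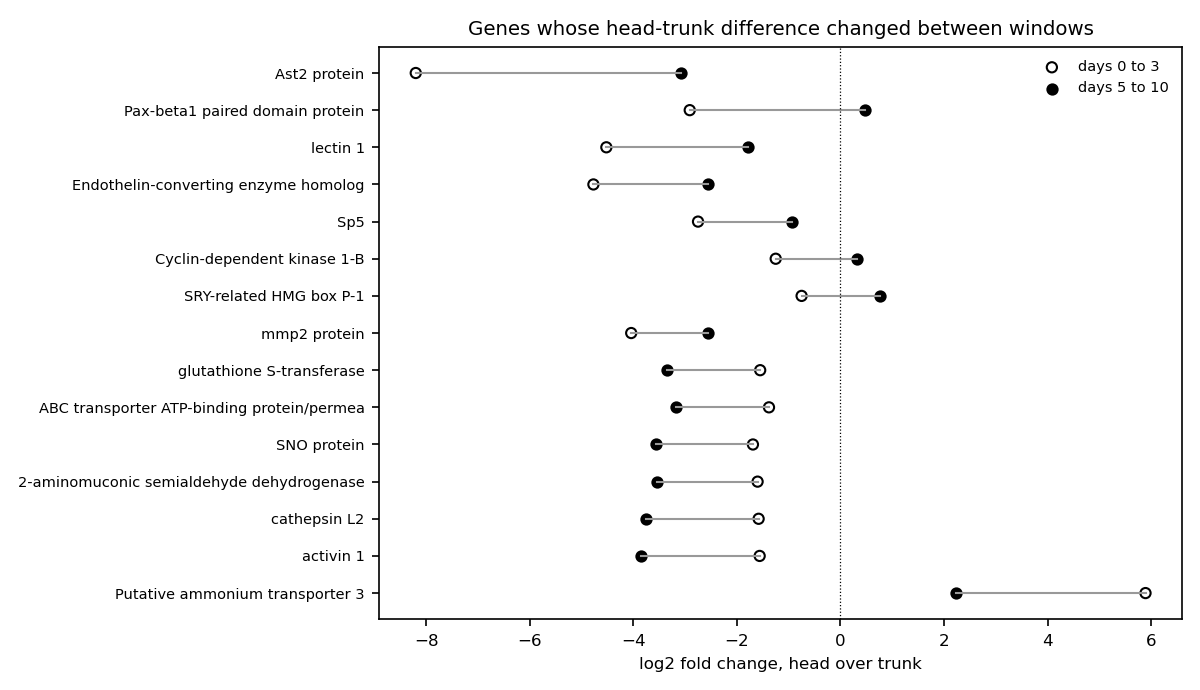
Log2 head-minus-trunk difference of 15 genes in the fit of days 0 to 3 (open) and of days 5 to 10 (filled), joined by a line for each gene. Ast2, Pax-beta1, Sp5 and mmp2 lie further right on days 5 to 10, and activin 1, GST and wht-1 lie further left.

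The head unigenes furthest above the trunk included Gelsolin-like protein 1, an actin-severing protein relative, at 16.2, 15 and 10.3 CPM in the head and 0.592, 0.923 and 1.13 CPM in the trunk (3.94 ± 0.28, edgeR adjusted p = 4.77e-05). A copy named 60S ribosomal protein L3 (TRINITY_DN4203_c0_g1) was far lower in the head, with 0.45, 0 and 0.225 CPM in the head and 8.17, 9.97 and 7.17 CPM in the trunk (-5.15 ± 0.5). The most abundant unannotated unigenes past a log2 difference of 2 were TRINITY_DN69386_c0_g1, with 711, 619 and 583 CPM in the head and 90.9, 118 and 144 CPM in the trunk (2.45 ± 0.19, edgeR adjusted p = 0.000336), and TRINITY_DN182285_c0_g1, with 2570, 1730 and 1580 CPM in the head and 17400, 10700 and 10100 CPM in the trunk (-2.7 ± 0.087).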

How the data were processed

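The authors deposited 1 table of counts per unigene and library for 18 libraries, together with protein annotations of an assembled transcriptome. Per the submitters' processing notes, reads passed through FastQC, fastp 0.20.0, Bowtie2 and RSEM; RSEM gives estimated counts, whereas the deposited counts are whole numbers. Neither the step that made them whole nor the strand setting is stated. Of 267235 unigenes, 22624 had no count in any library, 14616 had a protein name, and 3 emptied lines were left out.

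The main fit used edgeR 4.0.16 (R 4.3.3, limma 3.58.1) on the 6 head and trunk libraries of days 5, 7 and 10, with TMM scaling, day as block and fragment as the tested term, on unigenes reaching 1 CPM in 3 or more libraries, leaving 2 residual degrees of freedom. Robust quasi-likelihood tests with Benjamini-Hochberg adjustment over all tested unigenes were called at 0.05. A second fit on 12 libraries tested the change of the head-trunk difference between windows. Standard errors are the absolute log2 difference divided by the square root of F. Printed CPM carry the TMM factors of the 12-library fit. The pairing comes from the day in the labels; deviations of same-day libraries from their fragment means correlated at 0.279, -0.0148 and 0.262 on days 5, 7 and 10. Counting floors cover counting error only.

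On simulated counts with day 5 to 10 depths, 39 of 100 unigenes changed 2-fold and 100 of 100 changed 4-fold were recovered, with 6 false calls among 20496 unigenes. For the change between windows, 10 and 97 of 100 were recovered, with 10 false calls among 21987. Every simulated unigene had the same fixed spread, above the common spread fitted to the day 5 to 10 libraries, and no day effect. Changed unigenes were drawn only from those above a minimum mean count. The recovered shares are therefore not the power of this data set.

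The members and lists were chosen with earlier results of these data known, and the lists' exclusions by name and a split of the TRAF names were made after member names were seen. Named genes are the 10 highest and 10 lowest annotated differences, up to 3 called members of each list, a fixed panel, 8 changes between windows each way and up to 2 unannotated unigenes each way; further members are named to show the spread of a list and were chosen after their values were seen. Alternatives were DESeq2 1.42.0 size factors and its test, library totals with and without the most abundant unigene, no filter, 5 CPM, no replicate block, 12 or 18 libraries, leaving out a day and, chosen after seeing the data, the older edgeR fit. With a day left out, 1 CPM was still required in 3 of the remaining libraries. In those fits 18381 to 18468 unigenes were fitted, so some list members lost there were not tested. Sequences and unigene lengths were not used here. Figures were drawn with matplotlib 3.10.9.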

Additional observations from a re-analysis of the deposited data

Results flagged for a closer look

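Each result here stands out because a test of the difference itself, the edgeR interaction of fragment and window, found that the head-trunk log2 difference on days 5 to 10 differed from that on days 0 to 3. Values are the change of that difference, positive where the head gained on the trunk. It was positive for Ast2 (5.14), Pax-beta1 (3.39), lectin 1 (2.73), the endothelin-converting enzyme (2.23), Sp5 (1.83), CDK1-B (1.56), SoxP-1 (1.52) and mmp2 (1.5).

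Changes in the other direction are given for the genes that the naming rule chose. Digestive or lysosomal ones were cathepsin L2 (-2.17), lysosomal acid phosphatase (-1.31) and Lysosomal aspartic protease (-1.18). The detoxifying enzyme GST was at -1.8. The gut homeobox factor DTH-1 (-1.32), the adaptor TRAF3 (-1.31), a pannexin (-1.11) and activin 1 (-2.29) were negative as well. Lysosomal acid phosphatase was not called with library totals, with no replicate block or without days 0, 1, 5 or 7 (edgeR adjusted p from 0.0594 to 0.173). The pannexin was not called under 10 alternatives, namely both library-total scalings, 5 CPM, no replicate block, the older edgeR fit and leaving out days 0, 1, 5, 7 or 10 (adjusted p from 0.0505 to 0.239). The Shaw potassium channel unigene TRINITY_DN1199_c0_g1 (-1.53; not called with library totals, no replicate block or without days 0, 1, 7 or 10, edgeR adjusted p from 0.0567 to 0.104), SNO (-1.87), wht-1 (-1.8), 2-aminomuconic semialdehyde dehydrogenase (-1.94) and ammonium transporter 3 (-3.65) were also negative, as was an HSP90 copy (-6.69), whose counts on days 5 to 10 came from 1 library. The unannotated unigenes TRINITY_DN182285_c0_g1 (-1.19) and TRINITY_DN725_c0_g1 (-1.47) changed the same way. Causes were not tested.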

How the results depend on the processing

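The count of unigenes that differed on days 5 to 10 (7309; 3357 higher, 3952 lower in the head) stayed within 1.5 times under DESeq2 size factors, the DESeq2 test, no filter, 5 CPM, 12 or 18 libraries and the older edgeR fit. With no replicate block, that is without the pairing by day, 6569 were called, 6355 of them calls of the paired fit with the same sign. Library totals gave 6565 higher and 2116 lower, and totals without the most abundant unigene 8966 and 1917. Leaving out a day gave 4579 to 6313 calls, 1946 to 2905 higher and 2633 to 3408 lower; the lowest counts came without day 7, and 4803 with 2122 higher came without day 10. For the change between windows (165; 56 higher, 109 lower), library totals gave 49 lower, totals without the most abundant unigene 94 higher and 61 lower, the DESeq2 test 463 (173 and 290), no filter 981 (413 and 568), 5 CPM 34 higher, and no replicate block 47 (36 and 11). Leaving out a day gave 62 to 263 calls, 18 to 80 higher and 35 to 183 lower, with 263 without day 3, 62 without day 7, 65 without day 0, 69 without day 1 and 96 without day 10. Across named genes, 2104 recomputed values stayed on their side of the threshold, 22 gained a call and 116 lost it. Another 2 changed sign where the main or the recomputed value was called: TRINITY_DN77690_c0_g1 (0.0081) and DjPiwiB (TRINITY_DN3080_c0_g1, 0.39), both with totals without the most abundant unigene. Sign changes between values not called in either fit are counted within the 2104, such as PiwiA without day 7 (0.17). Of the recomputed changes between windows, 256 kept and 78 lost the call. The mobile element median relative to all tested was -0.0096 with no filter. The cause was not tested. With 1 pool per fragment and day and 2 residual degrees of freedom, 2-fold differences were often missed in simulation. The simulated spread lay above the common spread fitted to these libraries.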

Other observations

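A pair of unigenes higher in the head on days 5 to 10 had 0 to 3 counts in each trunk library of those days. The unigene named DNA-directed RNA polymerase 19 kDa subunit (TRINITY_DN23945_c0_g3) was at 5.53, 1.36 and 17.3 CPM in the head and 0.0592, 0 and 0.0629 CPM in the trunk on days 5, 7 and 10, and TRINITY_DN30071_c0_g1 at 3.64, 1.11 and 12.8 CPM against 0.178, 0 and 0 CPM. On days 0, 1 and 3 the former was at 1.55, 0.28 and 0 CPM in the head and 0.335, 2.41 and 0.729 CPM in the trunk. The latter was then at 1.18, 0 and 0 CPM in the head and 0.503, 1.13 and 0.729 CPM in the trunk. In both, the trunk thus lay above the head on days 1 and 3 and below it on day 0. Of the later head libraries, day 10 was highest and day 7 lowest in both, and neither unigene could be fitted when a day was left out.

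The myosin heavy chain unigene TRINITY_DN4102_c0_g2 was at 0.045, 36.4 and 39.6 CPM in the head and 0.118, 0.0615 and 0.0629 CPM in the trunk on days 5, 7 and 10, and had been at 47.8 CPM in the trunk of day 1. It shares an assembly component with the other myosin heavy chain unigenes named here, whose values are uncertain to that extent. The pharynx muscle-1 unigene (TRINITY_DN4853_c0_g1), annotated elsewhere as laminin subunit alpha-2, was at 0.188, 0.2 and 0 CPM in the head on days 0, 1 and 3 and at 0.899, 2.17 and 5.22 CPM on days 5, 7 and 10, beside 12, 8.92 and 11.3 CPM in the trunk on the later days.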
